A study of Mus musculus with 8 samples.

Results

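The genes described here are 43 that encode the machinery of homologous recombination and of the Fanconi anaemia pathway. They were taken by symbol from a fixed list, all 43 matched exactly 1 row each among the 57353 rows of the expression table, and all 43 passed the filter on low counts. Messenger RNA was sequenced from cultured B16-OVA, a melanoma line of mouse origin that is known for carrying ovalbumin as a model antigen. The 4 Control libraries came from untreated cells. The 4 HMF libraries came from cells given 24 h with rod-shaped magnetic micromotors (MagRMs) and then a high-frequency magnetic field (HMF). All cells carried the genotype label WT and were harvested 6 h after treatment. No library had the micromotors alone or the field alone, so the effects of these cannot be told apart. Nothing in the labels states that libraries of a group were separate cultures, so the p-values measure only a spread among libraries that could be technical.

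Homologous recombination repairs broken DNA and stalled replication forks by copying the intact sister chromatid. Kinases sense the lesion, nucleases trim the broken end to a single-stranded tail, mediators prepare that tail for the search for its sister, the tail invades the sister, and helicases and nucleases separate the joined molecules afterwards. The Fanconi pathway handles links between the strands: a nuclear core complex attaches ubiquitin to the FANCD2-FANCI clamp, which then directs incision and recombination. Because a sister chromatid exists only after replication, many of these genes are known to be transcribed mainly in S and G2 phase, under the same cell cycle control as replication genes, while mitotic genes peak later.

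Library totals ranged from 13973961 to 19295358 counts, the highest in HMF 4. Across genes, log2 CPM of libraries in the same group correlated at 0.983 to 0.993, and of libraries in different groups at 0.959 to 0.976. All 8 melanocyte markers were expressed, with a summed level of 16990 to 19080 CPM in Control and 12740 to 15720 CPM in HMF. This shows melanocytic cells, as the label says, but does not identify the line. Of the 8 markers 5 fell in HMF (adjusted p below 0.05), 0 rose and 3 did not pass. The log2 fold changes of those that fell ran from -0.32 for Tyrp1 to -0.65 for Tyr. Over all tested genes 13.0% fell. CPM is the usual count scaled to library size, here with TMM factors. The summed level of 12 markers of leukocytes, endothelium, keratinocytes and fibroblasts was 26 to 31.6 CPM in Control and 23.5 to 28.4 CPM in HMF, and 5 to 7 of the 12 had no count in a library; Adgre1, Cd3e, Nkg7, Krt5 and Krt14 had none in any. Within that list Cd68, a lysosomal protein gene used as a macrophage marker, rose from 8.35 to 13.8 CPM on average (adjusted p = 0.00371), and Pdgfrb, a fibroblast and pericyte marker, fell from 13.8 to 7.94 CPM (adjusted p = 5.57e-04). The part of these in the results was not tested.

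Most of the recombination and Fanconi genes were lower after treatment. Of the 43, 28 fell, 3 rose and 12 did not pass (edgeR quasi-likelihood test, adjusted p below 0.05 over all 15082 tested genes, n = 4 per group). Over all tested genes 13.0% fell and 13.7% rose. At least 2-fold falls numbered 13 of 43, against 2.23% of all tested genes. All HMF libraries lay below all Control libraries in 28 of the 43, against 14.4% of all tested genes, and above them in 2, Atm and Atr, against 14.7%. The median log2 fold change of the 43 was -0.75 (quartiles -1.03 and -0.30), while the median over all tested genes was -0.0161. In bulk RNA, fewer cells in a phase of the cycle and less RNA per cell cannot be told apart. The mean log2 CPM of 26 mitotic genes moved with these values in every library, at 6.24 to 6.78 in Control and 4.62 to 5.25 in HMF, and its part in them was not tested.

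**Figure D1:**
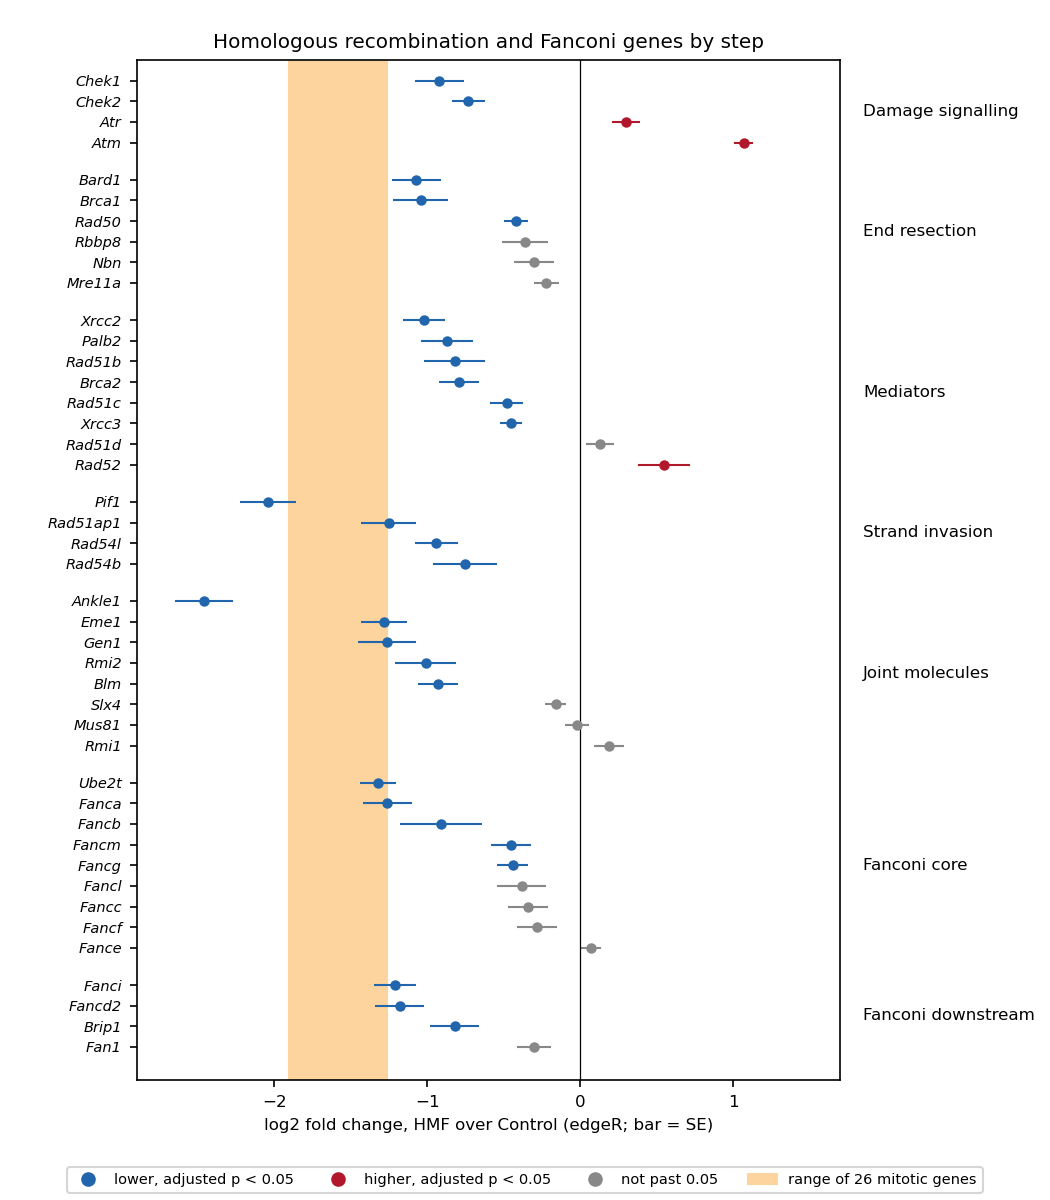
Log2 fold change of each of the 43 genes (HMF over Control, edgeR estimate, bar = SE, 4 libraries per group), grouped by step of the pathway, with colour for the call and a band for the range of the 26 mitotic genes (-1.90 to -1.26). Ankle1 and Pif1 lie to the left of the band, Eme1 and Ube2t inside it, Gen1 and Fanca at its edge, and Atm, Rad52 and Atr are the 3 higher in HMF.

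Damage signalling divided between the sensing kinases and the effector kinases. Atm, whose product is the kinase activated by broken ends, stood at 72.7, 69.6, 68.8 and 67.8 CPM in Control 1 to 4 and at 136, 140, 150 and 158 CPM in HMF 1 to 4. The groups were far apart, and the rise was 1.07 ± 0.06 on the log2 scale (SE; adjusted p = 5.69e-07). Atr, which encodes the kinase that answers to single-stranded DNA at stalled forks, went from 25.4, 24.3, 22.9 and 21.1 CPM to 30.5, 25.8, 27.8 and 30.7 CPM. Its groups were adjacent without overlap and the rise was small, at 0.30 ± 0.09 (adjusted p = 0.0292). That call was lost without Control 3 (adjusted p = 0.073), Control 4 (0.089), HMF 1 (0.0721) or HMF 4 (0.0632), with library size in place of TMM (0.0521) and on log2 FPKM (0.138 and 0.169 with pseudocounts of 1 and 0.1). An antisense gene, 1700065D16Rik, covers 3.07% of the Atr exon bases and rose from at most 0.183 CPM to at least 0.685 CPM, and since the strand setting of the counting is not given its reads cannot be told apart from those of Atr. The effector kinase genes fell. Chek1, which encodes the kinase downstream of ATR, was at 27.3, 25.9, 20.1 and 20.4 CPM in Control and at 12.3, 10.7, 10.1 and 15.9 CPM in HMF, a fall of 0.92 ± 0.16 (adjusted p = 0.00138). Chek2, the target of ATM, fell by 0.73 ± 0.11 (adjusted p = 5.55e-04), its mean going from 39.7 ± 5.50 to 23.8 ± 2.42 CPM (SD, n = 4).

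Among the genes of end resection, BRCA1 and BARD1, the partners of a ubiquitin ligase that promotes trimming of the end, had the largest falls. Bard1 went from 26.2, 29.8, 20.3 and 18.9 CPM in Control to 10.3, 11.9, 9.57 and 13.3 CPM in HMF, a fall of 1.07 ± 0.16 (adjusted p = 5.78e-04). Brca1 was the most abundant of the 43 per unit of length in Control, at 23.8 ± 2.39 FPKM (SD, n = 4). In HMF it ranked 3, at 11.3 ± 3.27 FPKM. In CPM it stood at 171, 217, 205 and 207 in Control and at 116, 98.6, 118 and 58.6 in HMF, a fall of 1.04 ± 0.18 (adjusted p = 0.00166). HMF 4 was the lowest of the HMF libraries for Brca1, and Brca1 was the only called fall among the 43 with that order. In 20 of the 28 genes that fell, HMF 4 was the highest of the HMF libraries. Leaving out single libraries moved the Brca1 estimate between -1.13 and -0.85. The MRE11-RAD50-NBN complex binds and starts to trim broken ends. Of its genes Rad50 fell by 0.42 ± 0.08 (adjusted p = 0.00382). Mre11a, the nuclease gene, was at 33.7, 33.6, 29.0 and 31.2 CPM in Control and at 26, 27.1, 26.6 and 30.0 CPM in HMF, with overlapping groups and a log2 fold change of -0.22 ± 0.08 that did not pass (adjusted p = 0.068). Nbn (-0.30 ± 0.13, adjusted p = 0.112) and Rbbp8, which encodes the resection factor CtIP (-0.36 ± 0.15, adjusted p = 0.0945), did not pass either. Without HMF 4 these genes passed, with Mre11a at -0.26 (adjusted p = 0.0357), Nbn at -0.43 (0.00965) and Rbbp8 at -0.45 (0.0394).

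Of 8 genes for mediators that act on the single-stranded tail, 6 fell, and their sizes differed. Xrcc2, a gene of the mediator family that also holds Xrcc3, Rad51b, Rad51c and Rad51d, went from 24.4, 24.3, 19.2 and 18.4 CPM to 9.25, 8.96, 11.4 and 12.8 CPM, without overlap, a fall of 1.02 ± 0.14 (adjusted p = 4.00e-04). Palb2, the bridge between BRCA1 and BRCA2, fell by 0.87 ± 0.17. Rad51b, at the low level of 4.74 ± 0.887 CPM in Control (SD, n = 4), fell by 0.82 ± 0.20. Brca2, whose product is the main mediator on that tail, fell by 0.79 ± 0.13 (adjusted p = 0.0012). Of the same family, Rad51c and Xrcc3, whose products pair with each other, fell by 0.48 ± 0.11 and 0.45 ± 0.07. Rad51d was the exception in this family. It was measured at 33.4, 27.1, 28.9 and 25.8 CPM in Control and at 30.4, 30.6, 31.3 and 33.8 CPM in HMF, with overlapping groups and a change of 0.13 ± 0.09 on the log2 scale (adjusted p = 0.317). Rad52, which encodes a strand annealing protein, rose. Its libraries read 26.1, 35.7, 21.4 and 24.2 CPM in Control and 36.3, 36.7, 33.2 and 50.3 CPM in HMF. Control 2 lay above HMF 3, so the groups overlapped, and the rise of 0.55 ± 0.17 only just passed (adjusted p = 0.0311). The Rad52 call was lost without Control 1 (adjusted p = 0.0643), Control 3 (0.0835), Control 4 (0.0847), HMF 2 (0.0555) or HMF 4 (0.0574), and on log2 FPKM (0.0563 and 0.0541).

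All 4 genes of strand invasion fell. Pif1, a helicase gene whose yeast counterpart promotes DNA synthesis from the invading strand, went from 30.2, 37.0, 22.9 and 28.0 CPM in Control to 8.16, 6.91, 5.03 and 8.50 CPM in HMF. HMF retained 24.2% of the Control mean. Rad51ap1, which encodes a protein that assists invasion, fell by 1.25 ± 0.18 (adjusted p = 4.56e-04), its level going from 56.1 ± 10.3 to 23.4 ± 6.34 CPM (SD, n = 4). Rad54l encodes a motor protein that moves along DNA, and it fell by 0.94 ± 0.14. Its relative Rad54b was at 23.3, 24.6, 17.3 and 17.3 CPM in Control and at 8.98, 15.4, 8.58 and 15.7 CPM in HMF. The HMF values fell into a lower and a higher pair, both under Control, and the fall was 0.75 ± 0.21 (adjusted p = 0.0232). The Rad54b call was lost without Control 1 (adjusted p = 0.0592), Control 2 (0.0638), HMF 1 (0.0574) or HMF 3 (0.0607). Rad54b shares 35.8% of its exon bases with Fsbp on the same strand, so the split of reads between them is uncertain, and Fsbp itself stood at 0.33 ± 0.16 on the log2 scale (adjusted p = 0.163).

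The genes that separate joined molecules were the most uneven of the 7 steps, ranging from -2.46 to 0.19. Ankle1, a nuclease gene whose worm counterpart cuts chromatin bridges late in cell division, read 48.4, 61.0, 37.7 and 40.3 CPM in Control and 8.98, 9.57, 5.53 and 9.73 CPM in HMF. HMF kept 18.1% of the Control mean. Per unit of length Ankle1 was the second most abundant of the 43 in Control, at 18.5 ± 4.03 FPKM, and in HMF it was at 3.24 ± 0.733 FPKM (SD, n = 4). Gen1, which encodes a nuclease that cuts crossed junctions, fell by 1.26 ± 0.19 (adjusted p = 5.47e-04). Mus81 and Eme1 encode the catalytic and the partner subunit of another junction nuclease. Eme1 went from 15.4, 18.6, 13.5 and 14.4 CPM to 5.28, 7.11, 5.39 and 7.54 CPM, a fall of 1.28 ± 0.15 (adjusted p = 1.06e-04). Mus81 read 23.4, 21.7, 23.5 and 23.1 CPM in Control and 24.5, 21.4, 20.6 and 23.8 CPM in HMF. HMF values lay on both sides of the Control range, and the means differed by -0.02 ± 0.08 on the log2 scale (adjusted p = 0.868). The scaffold gene Slx4 was at -0.16 ± 0.07 (adjusted p = 0.146). The helicase BLM works with RMI1 and RMI2 to dissolve crossed junctions. Blm fell by 0.93 ± 0.13 and Rmi2 fell by 1.01 ± 0.20, the latter from 15.0, 12.8, 9.09 and 10.1 CPM to 4.80, 5.74, 4.68 and 7.86 CPM. Rmi1 was at 20.3, 25.3, 20.7 and 20.9 CPM in Control and at 21.8, 23.8, 26.1 and 27.9 CPM in HMF, a log2 fold change of 0.19 ± 0.10 that did not pass (adjusted p = 0.195).

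**Figure D2:**
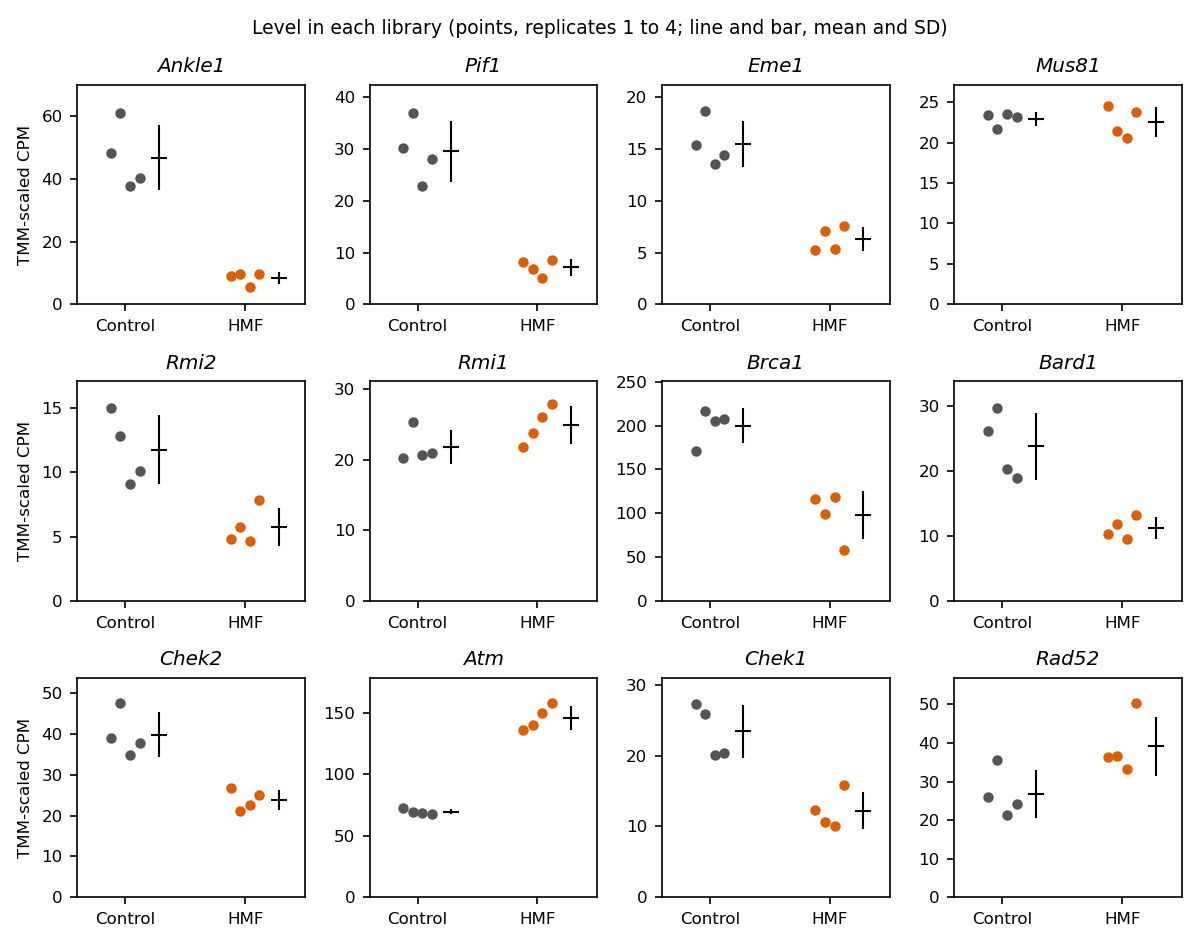
TMM-scaled CPM of 12 genes in each of the 4 Control and 4 HMF libraries (points), with the group mean and SD (line and bar), each axis starting at 0. Ankle1, Pif1, Eme1, Rmi2, Brca1, Bard1, Chek1 and Chek2 have every HMF point under every Control point, Mus81, Rmi1 and Rad52 overlap, and Atm has every HMF point above.

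In the Fanconi core complex the enzyme that hands over ubiquitin fell most. Ube2t, the ubiquitin-conjugating enzyme gene, read 33.4, 40.9, 30.8 and 29.0 CPM in Control and 14.2, 12.7, 11.7 and 15.0 CPM in HMF. The groups were well apart, and the fall was 1.32 ± 0.12 (adjusted p = 1.82e-05). Fanca, a scaffold subunit gene, fell by 1.26 ± 0.16 (adjusted p = 1.56e-04), its level going from 70.8 ± 12.4 to 29.4 ± 6.35 CPM (SD, n = 4). Fancb, at the lowest length-scaled level of the 43 (0.865 ± 0.215 FPKM in Control, SD, n = 4) and with 12 to 53 counts per library, fell by 0.91 ± 0.27 (adjusted p = 0.0279) with overlapping groups. The Fancb call was lost without Control 1 (adjusted p = 0.0758), Control 2 (0.0646), Control 4 (0.0585), HMF 2 (0.0731) or HMF 3 (0.0704). Fancm, which encodes the DNA translocase that anchors the complex, fell by 0.45 ± 0.13 and Fancg by 0.44 ± 0.10. The Fancm call was lost without Control 1 (adjusted p = 0.051), Control 2 (0.0501), HMF 2 (0.0506) or HMF 3 (0.0675). The other 4 did not pass. Fancl, the ubiquitin ligase gene, was at -0.38 ± 0.16, Fancc at -0.34 ± 0.13 and Fancf at -0.28 ± 0.13. Fancc passed without Control 1, at -0.40 (adjusted p = 0.0469). Fance was at 48.3, 41.9, 41.8 and 48.8 CPM in Control and at 48.8, 48.4, 45.6 and 46.4 CPM in HMF, which is 0.07 ± 0.07 on the log2 scale (adjusted p = 0.55).

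The clamp that the core complex modifies fell as a pair. Fanci went from 29.6, 26.5, 22.4 and 23.3 CPM to 11.8, 9.09, 9.50 and 13.3 CPM, a fall of 1.21 ± 0.14 (adjusted p = 8.92e-05). Fancd2 fell by 1.18 ± 0.16 (adjusted p = 2.32e-04), its level going from 85.5 ± 15.3 to 37.5 ± 7.78 CPM (SD, n = 4). Brip1, a helicase gene that works with BRCA1, fell by 0.82 ± 0.16 (adjusted p = 0.00315). Fan1, a nuclease gene recruited by the modified clamp, read 14.8, 12.7, 15.0 and 13.2 CPM in Control and 10.7, 13.2, 9.99 and 11.4 CPM in HMF. HMF 2 lay inside the Control range, and the log2 fold change of -0.30 ± 0.11 did not pass (adjusted p = 0.0709), though it did without HMF 2, at -0.38 (adjusted p = 0.0392). Exons of Fancc, Fanci, Rad54l, Fancf, Fancl and Fanca overlap those of an opposite-strand gene over 10.5% to 16.4% of their bases, so a part of their reads could belong to that neighbour if the counting ignored strand.

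**Figure D3:**
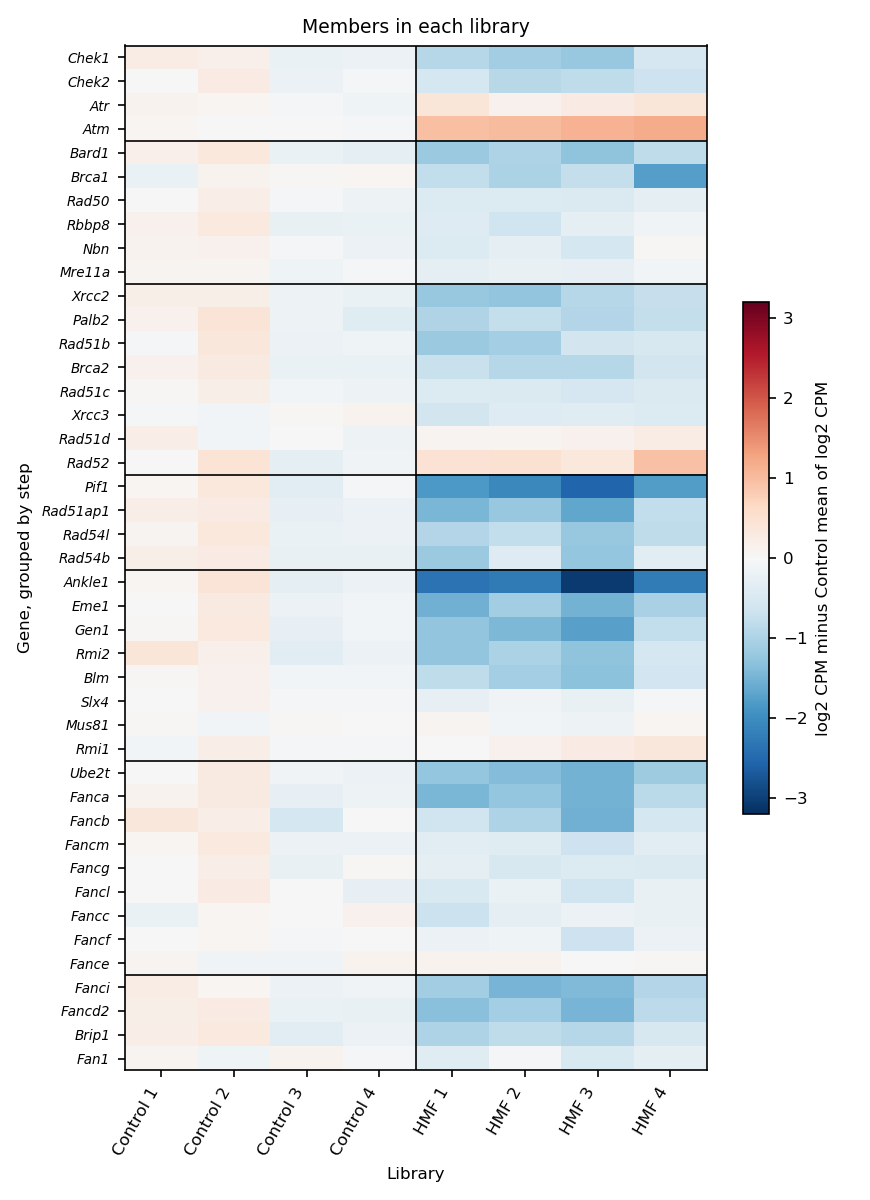
Log2 CPM of the 43 genes (rows, by step) in the 8 libraries (columns) minus the mean of the 4 Control libraries, blue for lower and red for higher. Ankle1 and Pif1 are the darkest rows in HMF, Atm is the reddest, and Brca1 is darkest in HMF 4 where 20 of the 28 genes that fell are palest.

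Genes whose products act as partners were also compared with each other. For 17 partner pairs, chosen after the values were seen, the log2 difference between the members was taken in each library. It was compared between the groups by a two-sided exact permutation test over the 8 libraries. Each resulting shift largely restates the gap between the log2 fold changes given above for its members, so it is no independent evidence. In 9 pairs the exact permutation p was 0.0286, the smallest this design allows. After adjustment over the 17 pairs this was 0.054, so no pair passed. At this smallest p a pair could pass only if more pairs had shared it, so that outcome says little. The shift was 1.79 between Atm and Chek2, from 0.82 ± 0.19 in Control to 2.61 ± 0.18 in HMF (SD, n = 4). It was 1.26 between Mus81 and Eme1, from 0.57 ± 0.25 to 1.83 ± 0.28. Rmi1 against Rmi2 shifted by 1.20, Atr against Chek1 by 1.23, Rmi1 against Blm by 1.15, Rad51d against Xrcc2 by 1.15 and Fancl against Ube2t by 0.93. In the remaining pairs at the smallest p it was 0.36 for Fance against Fancf and 0.20 for Mre11a against Rad50. The shift was -0.02 between Brca1 and Bard1 (exact p = 1), 0.03 between Fancd2 and Fanci (exact p = 0.943), 0.02 between Xrcc3 and Rad51c (exact p = 0.886) and 0.06 between Brca2 and Palb2 (exact p = 0.571). Among the other pairs it was 0.49 for Fancl against Fancb (exact p = 0.114) and -0.35 for Rad51b against Rad51c (exact p = 0.171). Rad54l against Rad54b was at -0.14 (exact p = 0.4) and Nbn against Rad50 at 0.10 (exact p = 0.371).

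The mitotic genes served as the yardstick for the size of these falls. All 26 of them fell, from -1.26 for Ube2c, a ubiquitin enzyme gene of mitotic exit, to -1.90 for Kif11, a spindle motor gene, with a median of -1.55. The median of 30 S phase genes was -0.90, of which 27 fell, beside -0.75 for the recombination and Fanconi genes. Each gene's change was then compared with that of the mitotic mean in the same libraries (limma, adjusted over all 15082 tested genes). By this test 34 of the 43 fell less than the mitotic mean or rose, as did 97.6% of all tested genes. The distance from the mitotic mean ran, among these 34, from 0.39 (95% interval 0.05 to 0.73; adjusted p = 0.0273) for Fancd2 to 2.64 (2.26 to 3.03) for Atm.

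For 7 genes the difference from the mitotic mean did not pass, which does not show that they fell equally. It was 0.27 for Ube2t (95% interval -0.10 to 0.64), 0.29 for Gen1 (-0.08 to 0.66), 0.30 for Eme1 (-0.10 to 0.69) and 0.30 for Rad51ap1 (-0.04 to 0.65). Fanca was at 0.31 (-0.03 to 0.65) and Fanci at 0.36 (-0.03 to 0.75). Brca1 had the widest interval of these, at 0.50 (-0.06 to 1.06). It moved most without HMF 4, where it was 0.84 and passed (adjusted p = 5.17e-05), and it also passed without Control 3 (0.60, adjusted p = 0.0362) or Control 4 (0.58, adjusted p = 0.0486).

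Ankle1 and Pif1 fell more than the mitotic mean. The difference was -0.88 for Ankle1 (95% interval -1.26 to -0.50; adjusted p = 1.34e-04) and -0.46 for Pif1 (-0.84 to -0.07; adjusted p = 0.024). These 2 of the 43 were among 4 genes with that outcome, which made up 0.0265% of all 15082 tested genes. Ankle1 kept the call without any single library (adjusted p at most 5.53e-04). Pif1 lost it without Control 4 (-0.42, adjusted p = 0.0816) and without HMF 2 (-0.44, adjusted p = 0.0648).

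**Figure D4:**
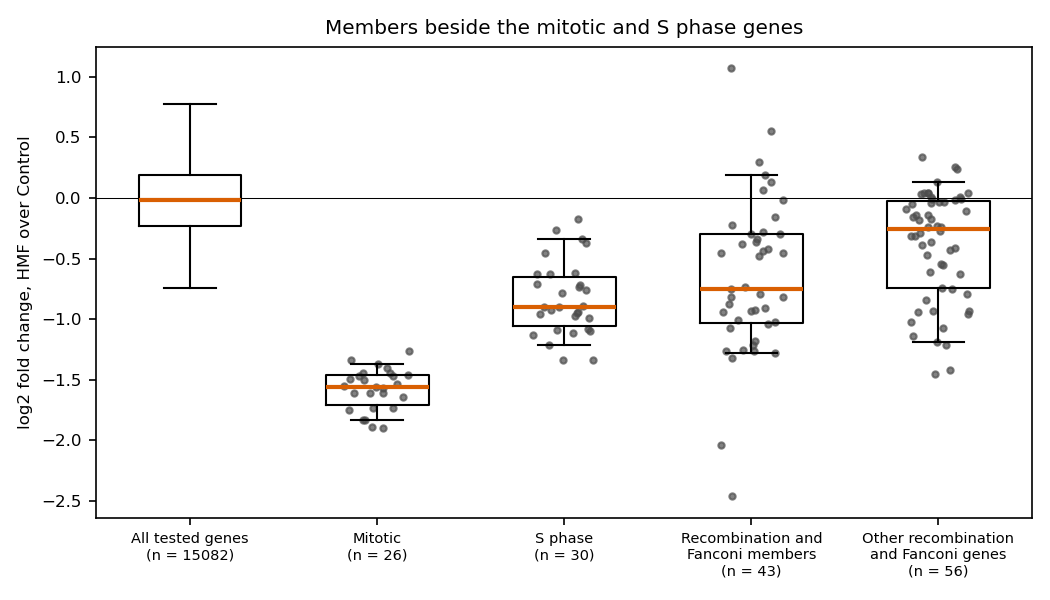
Log2 fold change (HMF over Control) of all 15082 tested genes (box only) and of single genes in 4 lists (points), with boxes for the quartiles, an orange median and whiskers at the 5th and 95th percentiles. The mitotic genes lie lowest with a median of -1.55, the S phase genes follow at -0.90, and the 43 recombination and Fanconi genes spread from -2.46 to 1.07 around -0.75.

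Of 57 further genes of recombination and the Fanconi pathway, taken from general knowledge, 56 were tested. Among these 24 fell, 3 rose and 29 did not pass, with a median of -0.26, while 13.0% of all tested genes fell and 13.7% rose. The difference between this list and the 43 was not tested. Parpbp, which encodes a protein that restrains recombination, had the lowest value, -1.45 ± 0.17 (adjusted p = 9.12e-05). Sfr1, which encodes an accessory factor of strand exchange, rose by 0.34 ± 0.06 (adjusted p = 0.00168). At least 2-fold falls numbered 7 of 56, against 2.23% of all tested genes. Dmc1, the recombinase of meiosis, was below the count filter.

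Promoter sequence was set beside these values because mitotic genes and S phase genes are known to be controlled through different promoter elements. The window ran from 250 bases before to 50 after the annotated start in RefSeq (build GRCm38.p6), and 34 of the 43 genes had one; Pif1, Rad51d, Rad50, Nbn, Xrcc2, Rmi2, Fancd2, Rad54b and Rbbp8 are named only. Both strands were searched for TTTGAA, the core of the cell cycle genes homology region (CHR) of mitotic promoters, for CCAAT, and for the E2F letters TTTGGCGC, TTTGCCGC, TTTCGCGC and TTTCCCGC. The motifs could overlap, and a gene with several annotated starts counted once if any of its windows held a match. TTTGAA was found in 16 of 22 mitotic promoters (72.7%), in 4 of the 34 (11.8%) and in 17.9% of all 32851 windows. The 4 were Ankle1, Eme1, Bard1 and Rad51b, with matches at -10, 21, -242 and 7 bases from an annotated start, in that order. All of these genes fell, as did all but 12 of the 34, and most of the genes that fell had no TTTGAA. From 60 bases before the start onward, TTTGAA occurred in 14 of 22 mitotic promoters (63.6%), 3 of the 34 (8.82%) and 5.50% of all windows. An E2F match was found in 6 of the 34 (17.6%), in 11 of 24 S phase promoters (45.8%), in 1 of 22 mitotic promoters and in 2.26% of all windows. CCAAT was found in 20 of the 34 (58.8%), in 18 of 22 mitotic promoters (81.8%), in 15 of 24 S phase promoters (62.5%) and in 37.4% of all windows. Among the 34 CCAAT was in 4 of 9 that fell at least 2-fold (44.4%) and in 7 of 12 that did not pass or rose (58.3%). For TTTGAA these counts were 3 of 9 (33.3%) and 0 of 12, and for the E2F letters 1 of 9 (11.1%) and 1 of 12 (8.33%). The counts are small, and these differences were not tested. A match describes letters only, and the lack of a match says only that these letters are not in the window.

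The 150 bases before the start are given for Ankle1, the lowest of the 43, and Mus81, the nearest to 0. Ube2t and Atm were added after their values were seen, as a large fall in the core complex and the largest rise. Letters read 5′ to 3′ on the strand of the gene, and capitals mark the motif matches.
Ankle1 (chr8:71405862-71406011, plus strand): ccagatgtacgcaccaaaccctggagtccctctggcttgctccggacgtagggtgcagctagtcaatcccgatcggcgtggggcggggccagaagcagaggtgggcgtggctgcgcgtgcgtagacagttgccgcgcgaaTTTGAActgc
Mus81 (chr19:5488380-5488529, minus strand): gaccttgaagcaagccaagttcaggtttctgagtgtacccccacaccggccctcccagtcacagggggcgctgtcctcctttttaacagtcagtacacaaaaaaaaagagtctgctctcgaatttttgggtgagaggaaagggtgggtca
Ube2t (chr1:134962415-134962564, plus strand): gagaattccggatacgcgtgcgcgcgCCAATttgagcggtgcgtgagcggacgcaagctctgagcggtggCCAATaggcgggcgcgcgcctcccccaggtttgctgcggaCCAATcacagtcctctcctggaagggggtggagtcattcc
Atm (chr9:53536672-53536821, minus strand): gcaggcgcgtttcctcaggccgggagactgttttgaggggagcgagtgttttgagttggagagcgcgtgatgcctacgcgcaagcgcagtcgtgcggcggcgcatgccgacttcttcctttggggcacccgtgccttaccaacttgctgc
In Ankle1 the capitals are a TTTGAA that starts 10 bases before the transcript. In Ube2t they are 3 CCAAT boxes at 124, 80 and 40 bases before it. Mus81 and Atm have no match in the stretch shown. Atm has a CCAAT match 165 bases before the start, in the searched window but outside that stretch.

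**Figure D5:**
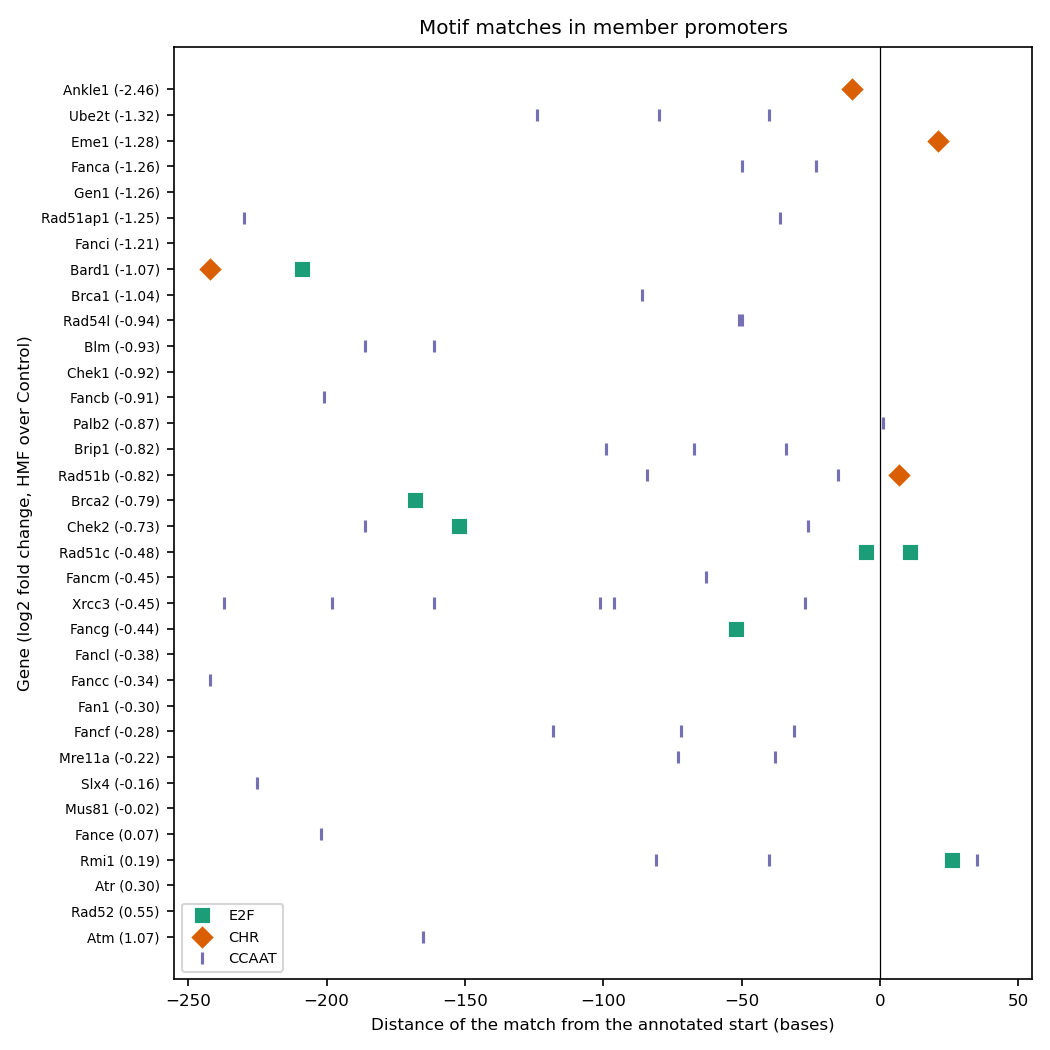
Position of each CHR, E2F and CCAAT match (symbols) relative to the annotated start, in bases, for the 34 genes with a promoter window, ordered from the lowest to the highest log2 fold change (in brackets). Ankle1 at the top has a CHR match 10 bases before the start. The genes at the bottom that did not pass or rose have no CHR match, and neither do most of the genes that fell.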

How the data were processed

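The authors deposited 1 table with raw read counts and FPKM of each gene in 8 libraries. Per the submitters' processing notes, Trimmomatic, HISAT2 2.0.5, HTSeq and DESeq2 were used with build mm10; the role of each, other versions, the annotation and the strand setting were not found there. The deposited FPKM are scaled by library total. No coordinates of the table are printed, because its build is uncertain. Groups were read from sample titles. Counts were filtered with filterByExpr, which left 15082 genes, and the filtered counts were then scaled by TMM. The quasi-likelihood test of edgeR 4.0.16 under R 4.3.3 compared the groups, with Benjamini-Hochberg adjustment over all 15082 genes and no covariate. Standard errors are the size of the log2 fold change divided by the root of the F statistic. The change relative to the mitotic genes used limma-trend (limma 3.58.1) on log2 CPM (prior count 2) minus the library's mean over 26 mitotic genes. Alternatives were RLE, upper quartile and library size scaling, 2 other count filters, a replicate block, each library left out, DESeq2 1.42.0, voom weights, log2 FPKM in limma (pseudocount 1 or 0.1), and an adjusted p below 0.01. The partner pairs and their alternatives were chosen after the data were seen. Within each step, values by library are given for the gene with the most negative, the most positive and the smallest change, and for genes that rose; Brca1, Eme1 and Rmi2 were added after their values were seen. Members, lists and tests were chosen with earlier results of these data known. The edgeR test and the comparison with the mitotic mean were also run on simulated counts, while the permutation test was not. Genes were drawn independently there, so shifts shared by many genes of a library were not covered. Whether replicate numbers pair the libraries is not known, and the main test did not pair them. Libraries of a group differed beyond sampling noise (chi-square over its degrees of freedom at least 2.13), and each was counted separately. That spread does not show that they came from separate cultures. Exon overlap came from GENCODE vM21, matched by gene identifier. Figures were drawn in matplotlib 3.10.9 (Python 3.11.15).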

Additional observations from a re-analysis of the deposited data

Results flagged for a closer look

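Among 92 sets of 4 libraries (the 43 genes and 3 library measures in each group), 4 had a library set apart from the other three by Dixon's 95% criterion, where chance marks about 5% of sets. Rmi1 was at 25.3 CPM in Control 2, against 20.3 to 20.9 CPM in the other Control libraries. Fancf was at 5.24 CPM in HMF 3, against 7.26 to 7.52 CPM in the rest of HMF, and Fancm was at 15.9 CPM in HMF 3, against 19.1 to 19.7 CPM. The total count of HMF 4 was 19295358, while HMF 1 to 3 had 14159514 to 14945878.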

How the results depend on the processing

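The count of 28 falls among the 43 genes ran from 24 (adjusted p below 0.01) to 31 over the alternatives, and no single gene that was called changed direction. Of 817 refits of single genes, 772 kept their side of the threshold, 34 lost a call and 11 gained one. Scaling by library size alone added falls of Mre11a, Fancc and Fan1, and over all tested genes it gave 2435 lower and 1743 higher (41.7% higher), against 1957 and 2073 (51.4%) with TMM. The 3 rises were the least stable count: 1 remained at an adjusted p below 0.01 and 1 on log2 FPKM with a pseudocount of 1 or 0.1, and leaving out libraries gave 1 to 3. Atm kept its call in all 19 alternatives. With a pseudocount of 1 on FPKM, which shrinks low genes, the median of the 43 was -0.46 and 8 fell at least 2-fold. At an adjusted p below 0.01, 2288 genes of all tested changed in place of 4030, and 1 gene, Ankle1, fell more than the mitotic mean; leaving out libraries gave 1 to 2. After each gene's group mean was subtracted, log2 CPM of same-numbered libraries correlated at -0.265, -0.0793, 0.225 and -0.319. These values did not show a pairing by number, and whether there was one is not known. With the replicate block 28 of the 43 fell, 2 rose (Atr was lost, at 0.30 with adjusted p = 0.0827) and 2785 genes changed in all. The 153 alternatives of the partner differences stayed within their spread between libraries. Depth limits Fancb, Fancl and Rad51b, at 12 to 85 counts per library.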
